A study of Mus musculus with 2 samples.

Results

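The genes of MHC class II presentation were measured in immune (CD45+) cells of mouse dorsal root ganglia (DRG), the clusters of sensory neurons beside the spinal cord. Members were the 10 genes listed for this pathway, H2-Aa, H2-Ab1, H2-Eb1, Cd74, H2-DMa, H2-DMb1, H2-DMb2, H2-Oa, H2-Ob and Ciita, and all 10 were present among the 16819 genes of the deposited matrix. Cells positive for CD45 and negative for DAPI, a stain that enters dead cells, were sorted from the DRG of 3 male and 3 female naive, WT BALB/cAnNRj mice. Each mouse was marked with its own hashtag antibody, and all cells were pooled into 1 lane of the 10x 3′ v3 assay. The deposited matrix held cells with a male hashtag alone, and the female cells were taken from the larger matrix of 4395 barcodes with the same filters. Ages and further details of the animals were not given in the labels used here. Levels are UMIs (unique molecular identifiers, counts of captured RNA molecules) per 1000000 UMIs of the same cells (CPM). The assay reads only the 3′ end of a transcript, so CPM was not divided by gene length, and levels were compared between cells and not between genes except as stated ratios of UMIs.

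MHC class II molecules carry peptides from endocytosed protein to the surface of antigen-presenting cells, where CD4 T cells read them. The classical molecules are pairs of an alpha and a beta chain, I-A from H2-Aa and H2-Ab1 and I-E with a beta chain from H2-Eb1. Cd74 encodes the invariant chain, which holds the new pair and blocks its groove until the endosome. H2-DMa, H2-DMb1 and H2-DMb2 encode the chains of DM, which removes the remaining fragment of the invariant chain and edits the peptide. H2-Oa and H2-Ob encode DO, an inhibitor of DM known from B cells and some dendritic cells. Ciita encodes CIITA, a coactivator with no DNA binding of its own, which is recruited by the factors bound to the X and Y boxes of class II promoters (RFX, CREB and NF-Y).

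The 6 promoter stretches below are shown because the members are known for this shared promoter element. RefSeq promoter windows of GRCm38.p6, 250 bases before to 50 bases after a start site, were found for 7 member genes (8 windows, with 2 for H2-DMa), and H2-Ab1, Cd74 and Ciita had no entry. The Y box TGATTGG, searched on both strands, was found in 6 of the 8 windows and on the strand of the gene in each. It was found in 7.80% of all 32817 promoter windows of the same length, and in 3.99% on the strand of the gene. Each line below gives 80 bases, 5′ to 3′ on the strand of the gene, that end 12 bases after the Y box, with the Y box in capitals.

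H2-Aa: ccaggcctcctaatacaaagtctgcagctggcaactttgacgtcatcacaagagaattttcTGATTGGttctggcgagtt

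H2-Eb1: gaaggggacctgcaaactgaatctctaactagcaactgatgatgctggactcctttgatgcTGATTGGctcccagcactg

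H2-DMb1: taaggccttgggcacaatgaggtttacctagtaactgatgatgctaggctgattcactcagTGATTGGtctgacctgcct

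H2-DMb2: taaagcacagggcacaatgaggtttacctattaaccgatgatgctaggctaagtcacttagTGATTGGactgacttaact

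H2-Oa: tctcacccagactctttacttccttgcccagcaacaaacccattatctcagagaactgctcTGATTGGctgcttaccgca

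H2-Ob: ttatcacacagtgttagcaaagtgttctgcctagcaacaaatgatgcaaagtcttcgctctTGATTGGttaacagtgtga

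In GRCm38.p6 these stretches lie at chr17:34287855-34287934 on the minus strand (H2-Aa) and, on the plus strand, at chr17:34305745-34305824 (H2-Eb1), chr17:34153067-34153146 (H2-DMb1), chr17:34145096-34145175 (H2-DMb2), chr17:34092273-34092352 (H2-Oa) and chr17:34238785-34238864 (H2-Ob). The Y box began 50 bases before the start site in H2-Aa and 61 in H2-Eb1. It began 63 bases before the start site in H2-DMb1, 92 in H2-DMb2, 45 in H2-Oa and 59 in H2-Ob. The stretches of H2-DMb1 and H2-DMb2 had the same base at 67 of 80 positions (83.75%), and the other 14 pairs at 23.75% to 40.0%. The shorter core ATTGG, which lies within TGATTGG, was in 7 of the 8 windows and in 37.4% of all windows. Of the other letters searched, the X1 core GNAACAG was in 2 of 8 windows (18.8% of all). It began 180 bases before the start site in H2-DMb1 and, on the opposite strand, 3 in H2-Oa. The X2 core TGNGTCA was in 2 of 8 (15.4%), 86 bases before in H2-DMa and, on the opposite strand, 132 in H2-Oa. The X2 core TGACG was in 1 of 8 (20.8%), 74 bases before the start site in H2-Aa. Only exact letters were searched, so a window without a match is not shown to lack an X box. A match is a description of these letters and not a measured binding site. The annotated H2 genes lie on chromosome 17 between H2-Oa (chr17:34092340-34095234) and H2-Eb1 (chr17:34305867-34316674), and Ciita lies on chromosome 16 (chr16:10480059-10528418).

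The male cells held 23403638 UMIs, with a median of 8283.5 UMIs and 2168 genes per cell, and mouse 1, 2 and 3 gave 481, 772 and 1415 cells. Cells were classed by marker genes that are no members. Macrophages (C1qa, C1qb and C1qc at 0.5% or more of UMIs) numbered 1459, neutrophils (S100a8 and S100a9 at 5% or more) 311 and B cells (4 or more UMIs of Cd79a and Cd79b) 161. There were also 120 monocytes, 41 Xcr1- or Clec9a-positive dendritic cells (cDC1), 36 Cd209a-positive dendritic cells with Flt3, Zbtb46 or Itgax (cDC2), and 109 T and NK cells. A further 12 cells met a rule for plasmacytoid dendritic cells and 124 met none. The 295 cells that met more than 1 rule, 244 of them under both neutrophils and T and NK cells, were left out. Among listed markers that the rules did not use, 6 of 6 were highest in macrophages, 4 of 4 in B cells, 4 of 4 in neutrophils, 4 of 5 in cDC1, 2 of 3 in cDC2 (all but Irf4) and 2 of 4 in monocytes. Few cells lay near the macrophage limit, with 14 cells at 0.25% to 0.5% and 87 at 0.5% to 1%. The dendritic cell classes were small, with 15, 10 and 11 cDC2 and 5, 11 and 25 cDC1 in mouse 1, 2 and 3. The expression and hashtag libraries shared all barcodes of these cells and were read as 1 set of cells. The BALB/c H2 haplotype differs from that of the mm10 reference, and its effect on the H2 counts was not tested.

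The classical chains were highest in dendritic cells and macrophages and, in the class sums, an order of magnitude lower in B cells and monocytes. They were near 100 CPM in neutrophils and T and NK cells. The monocyte sums came largely from a minority of cells. The median monocyte of mouse 1, 2 and 3 had 0.0580%, 0.0887% and 0.0631% of its UMIs in the classical chains and Cd74. In mouse 1, 2 and 3, H2-Aa, the I-A alpha chain, was at 16551, 19877 and 21325 CPM in cDC2 and at 13720, 16540 and 17283 CPM in cDC1. It was at 11659, 13450 and 8720 CPM in macrophages. Both kinds of dendritic cells lay above macrophages in every mouse, and cDC2 and cDC1 overlapped. H2-Aa was at 1695, 1303 and 1230 CPM in B cells and at 523, 2499 and 1507 CPM in monocytes, which overlapped, and at 105, 110 and 161 CPM in neutrophils.

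H2-Ab1, the I-A beta chain, had the same order. It was at 8187, 10441 and 10469 CPM in cDC2, at 7359, 8181 and 8755 CPM in cDC1 and at 6020, 6694 and 4546 CPM in macrophages. H2-Ab1 in B cells was at 695, 581 and 571 CPM and in monocytes at 266, 1289 and 771 CPM. H2-Eb1, the I-E beta chain, was at 9593, 12330 and 14351 CPM in cDC2, at 9158, 10138 and 11167 CPM in cDC1 and at 7831, 8295 and 5743 CPM in macrophages. Its levels in B cells (806, 661 and 594 CPM) and monocytes (147, 1079 and 672 CPM) overlapped. For all 3 classical chains, mouse 3 had the lowest macrophages and the highest cDC2, and mouse 1 the lowest monocytes.

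**Figure D1:**
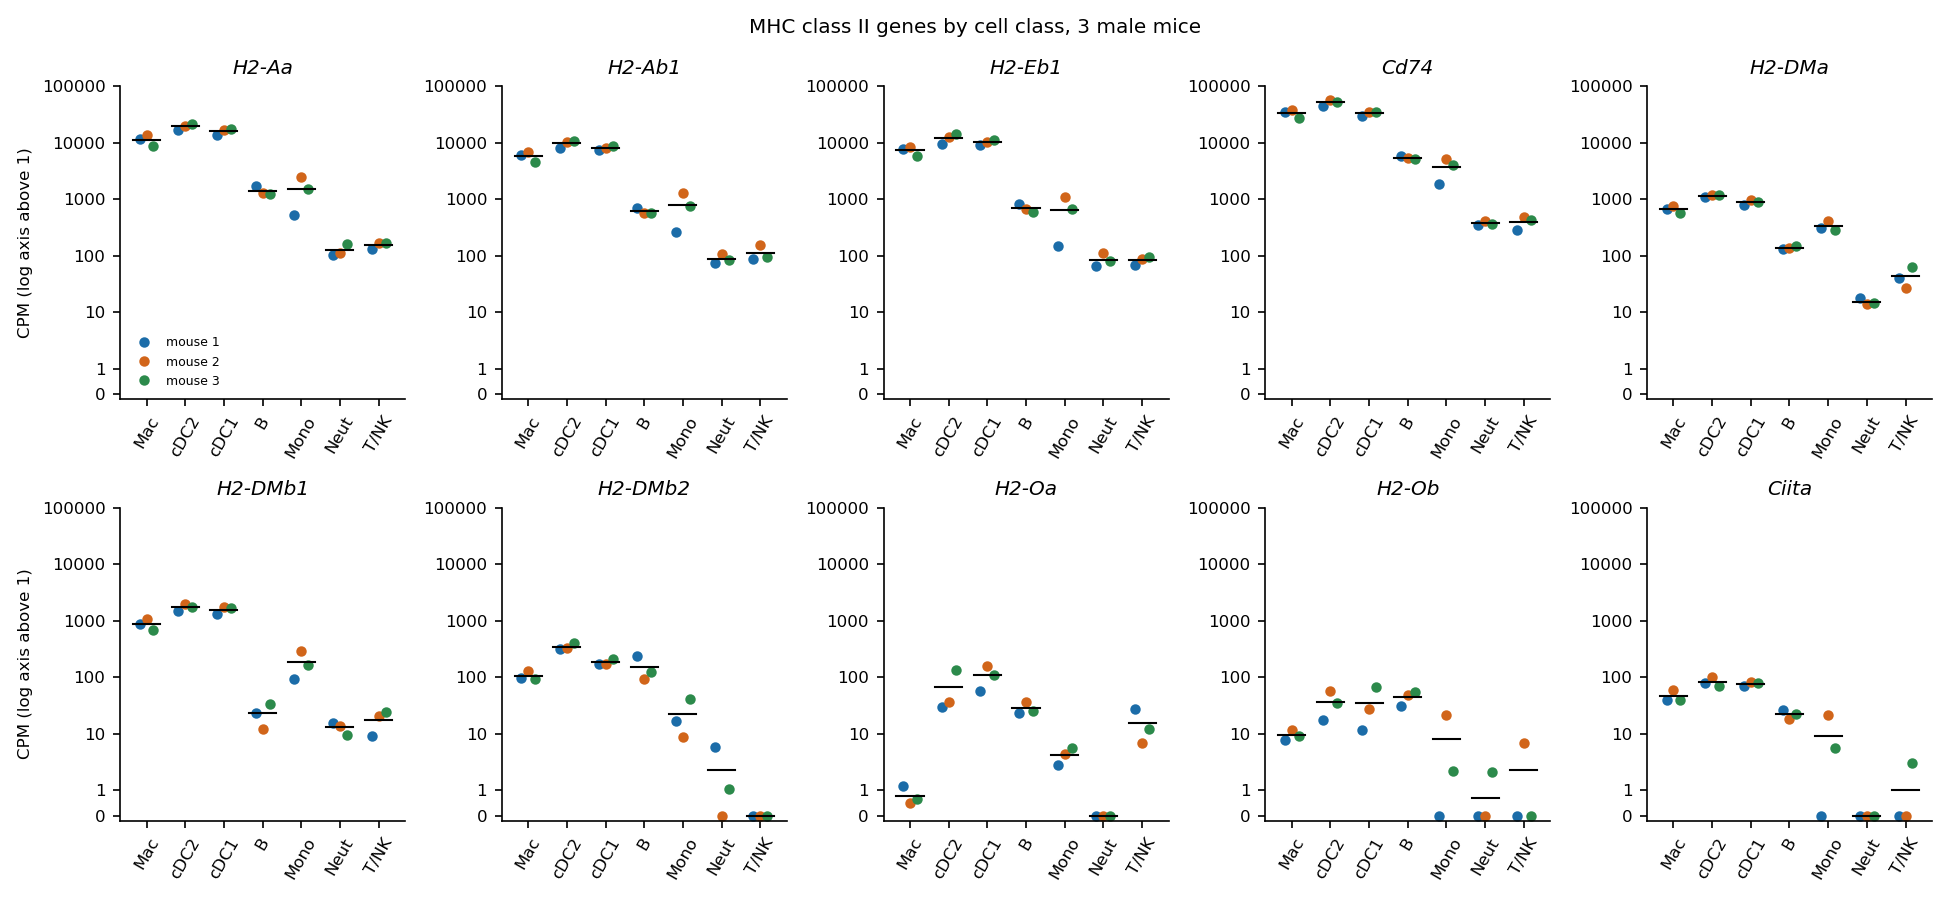
Level of each of the 10 class II genes (CPM, log axis above 1 and linear below) by cell class, with 1 point for each male mouse and a bar at the mean. H2-Aa, H2-Ab1, H2-Eb1 and Cd74 are high in macrophages and dendritic cells, whereas H2-Oa is at 0.520 to 1.21 CPM in macrophages and at 22.9 CPM or more in dendritic cells and B cells.

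Cd74, the invariant chain, was the most abundant member in UMIs. It was at 44135, 57170 and 53154 CPM in cDC2, at 34726, 37464 and 27402 CPM in macrophages and at 29722, 34626 and 34442 CPM in cDC1. Macrophages and cDC1 overlapped, while cDC2 lay above both in every mouse. Cd74 was at 5697, 5306 and 5220 CPM in B cells, just above monocytes (1855, 5130 and 4013 CPM), and at 348, 410 and 364 CPM in neutrophils. Cd74 and the 3 classical chains together made up 5.75% ± 1.0 of all UMIs in macrophages and 9.25% ± 1.22 in cDC2 (SD, n = 3 mice).

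The DM genes were present in the same classes at lower counts. H2-DMa, the DM alpha chain, was at 1104, 1165 and 1165 CPM in cDC2, at 802, 955 and 889 CPM in cDC1 and at 666, 760 and 563 CPM in macrophages. Its 7 classes followed each other without overlap, with monocytes (304, 403 and 284 CPM) above B cells (130, 136 and 151 CPM), T and NK cells (40.8, 27.3 and 63.3 CPM) and neutrophils (17.8, 13.8 and 14.7 CPM). H2-DMb1, a DM beta chain, was at 1484, 1990 and 1772 CPM in cDC2, at 1307, 1745 and 1652 CPM in cDC1 and at 863, 1052 and 697 CPM in macrophages. H2-DMb1 was at 91.3, 294 and 164 CPM in monocytes and at 22.9, 12.4 and 34.1 CPM in B cells, where it overlapped with T and NK cells (9.07, 20.5 and 24.1 CPM). B cells thus overlapped with T and NK cells in H2-DMb1 but not in H2-DMa.

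H2-DMb2, the second DM beta chain, had another order. It was at 311, 326 and 395 CPM in cDC2 and at 172, 172 and 208 CPM in cDC1. In B cells it was at 237, 92.6 and 122 CPM and in macrophages at 96.0, 129 and 94.2 CPM, and these classes overlapped. H2-DMb2 had 0 UMIs in T and NK cells, against 1375 UMIs in macrophages, and was thus at least 24.4-fold lower there, taking a floor of 3 UMIs over the class. H2-DMb1 and H2-DMb2 are near copies of each other, so their split of reads is uncertain, and the size of this error was not tested.

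Of the DO genes, H2-Oa was lower in macrophages than in dendritic cells and B cells without overlap. H2-Oa, the DO alpha chain, was at 1.21, 0.520 and 0.656 CPM in macrophages, which came from 2, 2 and 5 UMIs. It was at 57.3, 158 and 108 CPM in cDC1, at 30.2, 36.2 and 134 CPM in cDC2 and at 22.9, 37.1 and 25.6 CPM in B cells. Every mouse was at least 22.9 CPM in these 3 classes, which overlapped with their neighbours in the order. T and NK cells had H2-Oa at 27.2, 6.82 and 12.1 CPM (6, 1 and 4 UMIs), and neutrophils had 0 UMIs. A UMI of H2-Oa was found in 0.669% of macrophages and 44.5% of cDC2 (mean of 3 mice, median depths 8596 and 13972.5 UMIs). After cells were thinned to 2000 UMIs (30 macrophages and 0 cDC2 were shallower) these shares were 0% and 17.2%.

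H2-Ob, the DO beta chain, was at 30.5, 49.4 and 54.0 CPM in B cells, at 17.3, 57.9 and 35.3 CPM in cDC2, at 11.5, 27.5 and 67.4 CPM in cDC1 and at 7.85, 11.7 and 9.18 CPM in macrophages. These H2-Ob levels rested on 1 to 25 UMIs per mouse in dendritic cells and B cells and on 13, 45 and 70 UMIs in macrophages. Neighbouring classes overlapped throughout the order, and monocytes (0, 21.9 and 2.24 CPM) spanned the macrophages.

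Ciita was a low-count gene in every class. It was at 77.6, 101 and 70.6 CPM in cDC2, at 68.8, 82.4 and 78.2 CPM in cDC1 and at 39.9, 58.7 and 39.5 CPM in macrophages. Ciita was at 26.7, 18.5 and 22.7 CPM in B cells and at 0, 21.9 and 5.61 CPM in monocytes. Macrophages lay above B cells and below dendritic cells in every mouse. Neutrophils had 0 Ciita UMIs, which placed them at least 26.3-fold below macrophages at a floor of 3 UMIs over the class.

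The classes were compared in a single edgeR quasi-likelihood fit on UMIs summed per mouse and class, with Benjamini-Hochberg adjustment over the 5605 genes tested, so the adjusted p-values below all come from edgeR. Folds were fitted after TMM scaling and need not equal a ratio of CPM. The comparisons with macrophages share the macrophage sums and are not independent of each other. In cDC2, 4 of 10 members were higher than in macrophages and 0 were lower, where 22.8% of all genes passed in either direction and 11.2% were higher. These were H2-Oa (log2 6.12 ± 0.63 SE, adjusted p = 2.1e-08), H2-DMb2 (1.54 ± 0.27, 7.1e-05), H2-DMb1 (0.86 ± 0.23, 0.0053) and H2-DMa (0.65 ± 0.17, 0.0041). All 10 members were higher in cDC2 in 3 of 3 mice without overlap, but the share of all genes without overlap was not computed. The median log2 fold over the members was 0.67, against -0.05 over all genes tested. The classical chains and Cd74 had log2 differences of 0.50 to 0.63 (SE 0.22 to 0.31) that did not pass (adjusted p = 0.11 to 0.19). H2-Ob had a difference of 1.65 with adjusted p = 0.0503, and passed with the mouse as a block (adjusted p = 0.019). The number that passed depended on the mouse left out, with 9 members without mouse 1 and 2 without mouse 3. Of all genes, 851 to 959 passed with 1 mouse left out, against 1278 with all mice. The H2-DMa call was lost without a filter (adjusted p = 0.066), with stricter class limits (0.079) and without mouse 3 (0.11), and that of H2-DMb1 without mouse 3 (0.14). H2-Ob passed in 6 other alternatives too (0.020 to 0.049), and H2-Aa without a filter (0.038).

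In cDC1, 4 of 10 members were higher than in macrophages and 0 lower, where 32.0% of all genes passed and 14.8% were higher. H2-Oa was higher by 7.13 on the log2 scale (± 0.52 SE, adjusted p = 2.5e-11), H2-Ob by 2.27 ± 0.52 (9.7e-04), H2-DMb1 by 0.87 ± 0.23 (0.0036) and H2-DMb2 by 0.85 ± 0.29 (0.025). Cd74 had a difference of -0.01 ± 0.22, higher in 1 of 3 mice, while H2-Aa, H2-Ab1 and H2-Eb1 had differences of 0.48 to 0.50 that did not pass (adjusted p = 0.18 to 0.27). With the mouse as a block, H2-DMa (log2 0.43, adjusted p = 0.038, against 0.43 and 0.0515 without the block) and Ciita (0.82 and 0.034, against 0.77 and 0.066) passed as well. Ciita also passed with stricter class limits (0.039) and without mouse 2 (0.038), and the H2-DMb2 call was lost with DESeq2 (0.098). Without mouse 1 there were 7 members past the threshold, and without mouse 3 there was 1, H2-Oa. Of all genes, 1093 to 1631 passed with 1 mouse left out, against 1794 with all mice.

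Between cDC2 and cDC1, 0 of 10 members passed edgeR's test, where 11.1% of all genes passed, 5.32% higher and 5.76% lower in cDC2. Of the members, 3 had an unadjusted p under 0.05 in that test. The share of all genes at that unadjusted p is not given here for this fit. The count of 3 is therefore no result about the members. Without mouse 1, 1051 of all 5977 genes tested had an unadjusted p under 0.05 in edgeR's test. DESeq2 also passed 0 members. The differences nearest to the threshold were -1.003 ± 0.45 for H2-Oa, 0.69 ± 0.31 for H2-DMb2 and 0.51 ± 0.22 for Cd74 (log2, adjusted p = 0.18 to 0.19). Cd74, H2-DMb2 and H2-DMa were higher in cDC2 in 3 of 3 mice without overlap, and H2-Oa was higher in 1 of 3. The share of all genes without overlap was not computed here either. When all 6 mice were used, H2-Oa passed, lower in cDC2 than in cDC1 (log2 -1.27, adjusted p = 0.0053).

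B cells differed from macrophages in both directions. Of 10 members 7 were lower and 2 higher, where 59.2% of all genes passed, 30.2% lower and 29.0% higher. The lower members were H2-DMb1 (log2 -5.60 ± 0.36, adjusted p = 1.5e-13, 48.4-fold), H2-Eb1 (-3.92), H2-Ab1 (-3.74), H2-Aa (-3.51), Cd74 (-3.13), H2-DMa (-2.76) and Ciita (-1.50 ± 0.38, 0.0015). The DO genes were the higher ones, H2-Oa by 4.56 ± 0.68 (2.4e-06) and H2-Ob by 1.69 ± 0.48 (0.0037), which did not pass without mouse 3 (1.37, 0.13). H2-DMb2 had a difference of 0.02 ± 0.28 (adjusted p = 0.96) whose sign changed under other scalings (-0.01 with RLE factors and -0.02 with DESeq2). Against B cells, cDC2 were higher in 9 of 10 members, where 42.5% of all genes passed and 23.7% were higher, and H2-Ob was the exception (log2 -0.04 ± 0.62). The H2-Oa call was lost without mouse 3 (0.52, adjusted p = 0.65). The B cell sums pooled mature and precursor cells, which are compared further below. In mouse 1 and 3 pooled, H2-DMb2 was at 696 CPM in mature cells, above every male cDC2 and macrophage sum, and had 0 UMIs in precursors. H2-Oa was at 120 CPM in mature cells and had 0 UMIs in precursors. The B cell differences above are thus those of a mixture of stages.

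Monocytes were lower than macrophages in 8 of 10 members and higher in 0, where 38.9% of all genes passed and 20.1% were lower. The differences ran from -1.40 ± 0.17 for H2-DMa (adjusted p = 1.1e-07) to -3.92 ± 0.36 for H2-Eb1 (5.1e-10), with Ciita at -3.09 ± 0.42 (1.2e-06). The classical alpha and beta chains H2-Aa and H2-Ab1 both differed by -3.29, with SE of 0.32 and 0.30. The monocyte UMIs of the classical chains and Cd74 came largely from a minority of cells. The median monocyte held 0.0580%, 0.0887% and 0.0631% of its UMIs in them, so their fitted differences do not describe the typical monocyte. H2-Oa had a difference of 2.21 on 7 monocyte UMIs (adjusted p = 0.051, and 0.044 with the mouse as a block), and it also passed with DESeq2 (0.032), without a filter (0.027), without Scrublet doublets (0.028) and without mouse 1 (0.035). H2-Ob had a difference of -1.31 (0.14), which was -3.02 and passed with stricter (0.0036) and looser (0.0060) limits, and passed at -1.76 with all 6 mice (0.012) and at -2.68 without mouse 2 (0.028).

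Neutrophils were lower than macrophages in 9 of 10 members, and higher in 0, where 63.2% of all genes passed, 33.0% lower and 30.3% higher. Cd74 was 61.7-fold lower (log2 -5.95 ± 0.28, adjusted p = 1.8e-16) and H2-Aa 59.8-fold lower. H2-Oa was too low in both classes for a fold. The median log2 fold over all genes was -0.12 in this comparison. The H2-Ob call was lost with any 1 mouse left out (adjusted p = 0.054 to 0.099). Cd74 was at 1.13% of the macrophage level in neutrophils, 1.20% in T and NK cells and 0.918% in precursor B cells. A Cd74 UMI was found in 85.3% of neutrophils and 90.2% of T and NK cells, so the share of cells with a UMI could not tell these classes from macrophages, whereas the CPM could. The ratio of Cd74 to classical chains was 1.42, 1.25 and 1.13 in neutrophils and 1.36, 1.32 and 1.44 in macrophages. In neutrophils and T and NK cells the classical chains and Cd74 were at 1.11% to 1.97% of the macrophage level, and these low counts were not read as expression. In T and NK cells H2-DMa was at 6.61% of that level and H2-Oa at 15.4 CPM, above macrophages, on 11 UMIs. The part of free RNA in any of these counts was not tested.

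Other genes of the pathway were taken from a list of 19, of which 17 were in the matrix and 13 were tested between classes. In cDC2, 0 of 13 were higher and 3 lower than in macrophages. Legumain (Lgmn) and cathepsin L (Ctsl), proteases of the endosome that cut the invariant chain or antigen, differed by -3.75 ± 0.33 and -2.34 ± 0.45 on the log2 scale, and the transcription factor Irf1 by -1.39 ± 0.32. In cDC1, 3 were higher, among them the ubiquitin ligase gene March1 (by 0.81) and the RFX subunit gene Rfxap (by 0.72), and 4 lower (Lgmn, Ctsl, Irf1 and cathepsin S, Ctss, by -2.11 ± 0.25). Ctss was the 1 of 13 that was higher in cDC2 than in cDC1, by 1.61 ± 0.25 (adjusted p = 3.8e-05), at 2161 ± 177 against 625 ± 111 CPM (SD, n = 3). In B cells, 3 were higher than in macrophages (Nfyb by 2.45, the costimulatory receptor Cd40 by 1.81 and Nfyc by 1.10) and 7 lower, led by Lgmn (-5.60), the costimulatory ligand Cd86 (-4.67) and Ctss (-4.47). Monocytes had 2 higher and 4 lower, and neutrophils 2 higher and 5 lower. Of all genes, 22.8% passed against macrophages in cDC2, 32% in cDC1, 59.2% in B cells, 38.9% in monocytes and 63.2% in neutrophils. Between cDC2 and cDC1, 5.32% of all genes were higher in cDC2. The counts of this list stand beside these shares and are no result about the list. Of the genes for the promoter factors, Rfx5, Rfxank and Nfya had too few UMIs to be tested between classes, and Creb1 was tested but did not pass in any of them (adjusted p = 0.40 to 0.90).

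The MHC class I genes were measured for contrast. H2-K1 was at 724 ± 43.8 CPM in macrophages, and the differences of H2-K1, H2-D1 and B2m from macrophages that passed ran from -1.13 (B2m in neutrophils) to 0.84 (H2-K1 in cDC1) on the log2 scale.

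The ratio of editing to presenting chains was computed within each mouse and class, so it does not depend on depth or scaling. The presenting chains counted were H2-Aa, H2-Ab1 and H2-Eb1, and the I-E alpha chain was not among them. The 3 DM genes had 0.0637, 0.0683 and 0.0712 UMIs for each UMI of the classical chains in macrophages (0.0677 ± 0.0038, SD, n = 3). The ratio was 0.0844, 0.0816 and 0.0722 in cDC2, 0.0754, 0.0824 and 0.0739 in cDC1 and 0.122, 0.0947 and 0.128 in B cells. In monocytes, whose classical UMIs came largely from a minority of cells, it was 0.441, 0.145 and 0.166. All of these lay above macrophages without overlap, cDC2 by 0.23, cDC1 by 0.19, B cells by 0.75 and monocytes by 1.70 on the log2 scale. Neutrophils were above macrophages as well, at 0.161, 0.0842 and 0.0779 on 8 to 24 DM UMIs, while those of female mouse 4 had 0 DM UMIs beside 57 classical UMIs.

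Of the 4 presenting classes, B cells had the highest ratio of DO to DM. There were 0.0056, 0.0063 and 0.0073 DO UMIs for each DM UMI in macrophages, and 0.137, 0.359 and 0.259 in B cells. In cDC1 the ratio was 0.0302, 0.0646 and 0.0637, and in cDC2 it was 0.0164, 0.0270 and 0.0508. Macrophages had the lowest ratio of these 4 classes in every mouse, and B cells the highest. The B cell sums pool mature and precursor cells, so their ratios are those of a mixture of stages. Precursors of mouse 1 and 3 had a mean of 18.3 CPM of H2-Ob beside 17.7 of H2-DMa and 4.56 of H2-DMb1. In T and NK cells the ratio of DO to DM was 0.545, 0.286 and 0.138, on 2 to 6 DO UMIs per mouse. Cd74 gave 1.36, 1.32 and 1.44 UMIs for each classical UMI in macrophages, 0.983, 0.993 and 0.926 in cDC1 and 1.78, 2.08 and 2.18 in B cells, again without overlap. The range in cDC2 (1.29, 1.34 and 1.15) overlapped with macrophages.

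The UMIs of the DM beta chain genes were split in different proportions between classes. H2-DMb2 made up 10.0%, 10.9% and 11.9% of the UMIs of both beta chains in macrophages and 17.3%, 14.1% and 18.2% in cDC2, against 91.2%, 88.2% and 78.2% in B cells. These B cell shares rested on 20 UMIs of H2-DMb1 and 120 of H2-DMb2 over the 3 mice. The split of reads between these near copies is uncertain, and its effect on the shares was not tested.

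With 3 mice against 3, the exact permutation test (two-sided) cannot go below p = 0.10, which was reached wherever the classes did not overlap (0.15 after adjustment over the 24 comparisons of ratios). With the 6 mice, the female cells added, DM to classical chains stayed above macrophages in cDC2, B cells and monocytes in 6 of 6 mice (exact permutation p = 0.0022, the smallest that 6 against 6 can give, 0.0052 after adjustment). The same p was found for DO to DM in cDC2 and B cells, for Cd74 to classical chains in B cells and for the H2-DMb2 share in cDC2 and B cells. In cDC1, with 5 mice that had 5 or more cells, p was 0.0043 (0.0069 after adjustment) for DM to classical, DO to DM and Cd74 to classical chains. The test permuted values freely between classes, although both came from the same mice. Pairing by mouse was not used, so these p-values can overstate the evidence.

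**Figure D2:**
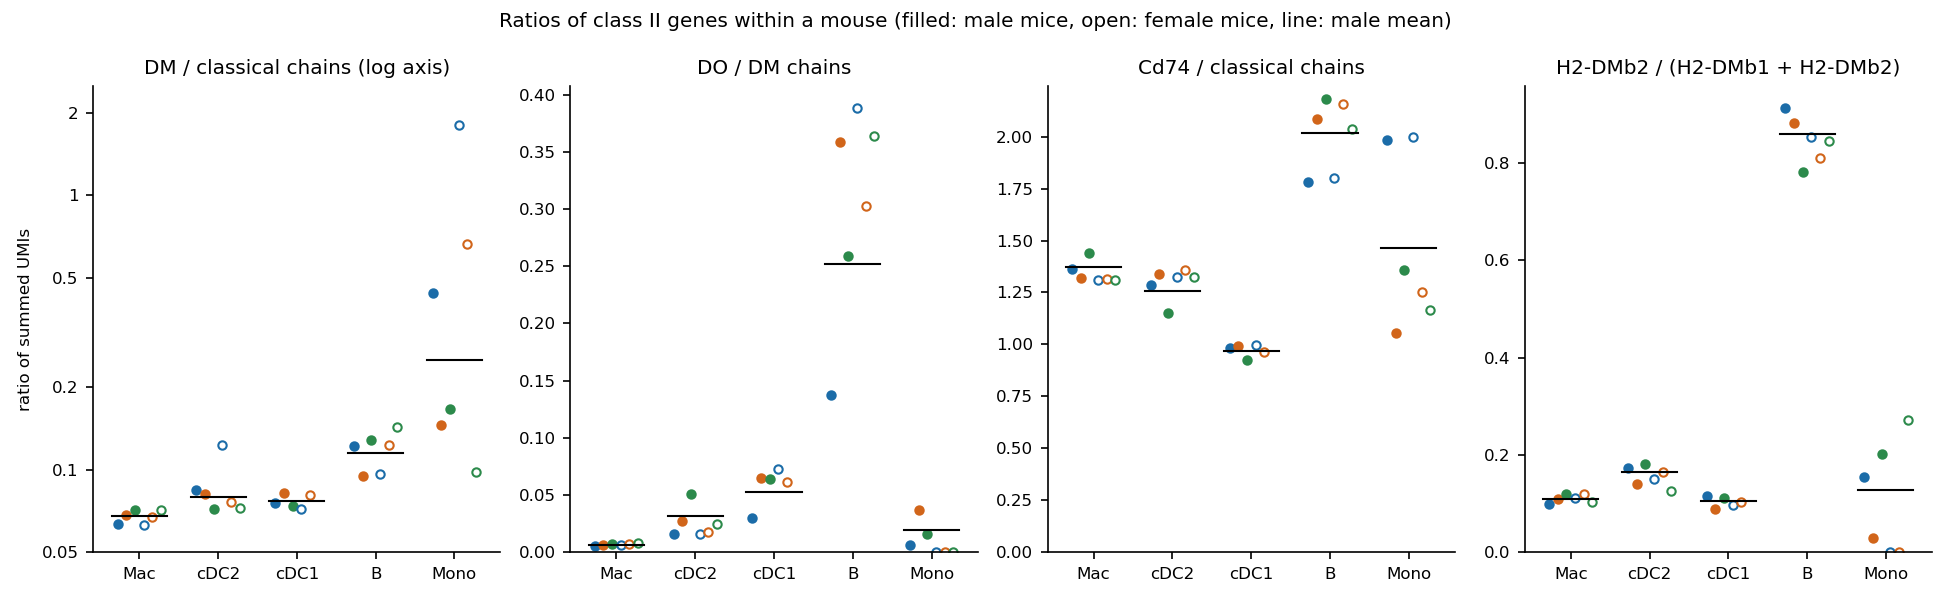
Ratios of UMIs between chains in macrophages, cDC2, cDC1, B cells and monocytes, with 1 point per mouse (filled male, open female), a line at the male mean and a log axis for the ratio of DM to classical chains. B cells stand apart in the DO to DM ratio (0.137 to 0.388) and in the H2-DMb2 share, and macrophages have the lowest DO to DM ratio of the 4 presenting classes in every mouse.

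The class II share of a cell was taken as the percent of its UMIs from H2-Aa, H2-Ab1, H2-Eb1 and Cd74. In macrophages of mouse 1, 2 and 3 its median was 6.73%, 6.95% and 5.37%. The 5th to 95th percentiles were 0.597% to 10.5%, 1.27% to 10.9% and 0.199% to 9.54%. The share thus ran over nearly an order of magnitude or more within each mouse, with a tail toward low values. In mouse 3 some cells gathered near 0, with 82 cells (10.8%) from 0% to 0.5% and 22 (2.89%) from 1% to 1.5%. Mouse 1 had the same shape on fewer cells, with 9 (4.92%) and 2 (1.09%) in these bins. In mouse 2 the bins held 10 (1.94%) and 11 (2.14%) cells. The coefficient of variation was 0.477, 0.416 and 0.608, and the variance was 105, 76.0 and 157 times that of binomial sampling at each cell's depth. After cells were thinned to 2000 UMIs, the mean coefficient of variation was 0.503, against 0.501 before. Cells with a share under 1% made up 7.65%, 4.08% and 16.2% of macrophages, and cells over 5% made up 68.9%, 74.95% and 53.7%.

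The spread differed between classes. The cDC1 were the most even, with a coefficient of variation of 0.183, 0.220 and 0.189 and 0 cells under 1%. In cDC2 it was 0.636, 0.244 and 0.371, and 13.3%, 0% and 0% of these cells had a share under 1%. B cells had a median share of 0.350%, 0.354% and 0.232% and a coefficient of variation of 1.30, 1.47 and 1.28. In monocytes the median was 0.0580%, 0.0887% and 0.0631% while the 95th percentile was 1.86%, 5.48% and 4.83%, so a few monocytes reached the range of macrophages. Neutrophils held 0.0673% ± 0.0073 of their UMIs in the 4 genes (SD, n = 3).

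**Figure D3:**
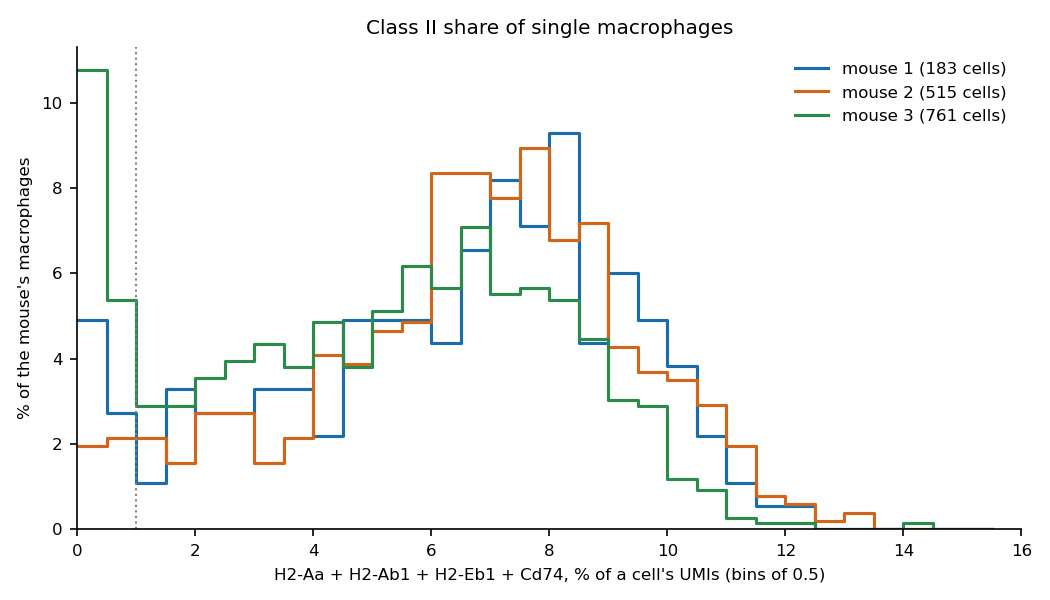
Distribution over cells of the class II share (percent of a cell's UMIs from H2-Aa, H2-Ab1, H2-Eb1 and Cd74) in macrophages of the 3 male mice, in bins of 0.5% with a dotted line at 1%. Most cells lie between 4% and 11%, and 7.65%, 4.08% and 16.2% of cells in mouse 1, 2 and 3 lie under 1%, where mouse 3 alone has its highest bin.

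The members other than H2-Oa and H2-Ob were positively correlated with each other across macrophages. Spearman's correlation between log-normalized levels, computed over the 183, 515 and 761 cells of each mouse and averaged, was 0.88 to 0.90 for the 6 pairs of classical chains and Cd74. With H2-Aa it was 0.72 for H2-DMb1, 0.47 for H2-DMa, 0.36 for H2-DMb2, 0.30 for Ciita, 0.11 for H2-Ob and -0.012 for H2-Oa, which had 9 UMIs in all macrophages. Pairs of genes in a cell share its depth, and the correlation falls with the count of a gene, so the order of these values is no order of coupling. The mean UMIs per cell were 97.8 for H2-Aa, 7.55 for H2-DMb1, 5.78 for H2-DMa, 0.926 for H2-DMb2 and 0.398 for Ciita. The correlation of the summed level of the 4 abundant members with total UMIs was -0.16, and with the MHC class I genes 0.10.

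Of 3872 other genes found in at least 20% of macrophages, those most like the summed level included the chemokine receptor gene Ccr2 (mean correlation 0.38, 0.31 to 0.43 over mice), Rps27 (0.33) and Cd52, Fau and Plbd1 (0.32 each). At the other end were Fcrls (-0.48), the scavenger receptor gene Stab1 (-0.44), the cathepsin genes Ctsd (-0.43) and Ctsb (-0.40), the mannose receptor gene Mrc1 (-0.39) and Lgmn (-0.39). Across the 21 sums of 7 classes and 3 mice, the genes with the highest Pearson correlation with the summed members were Cd83 (0.95), Clic4 (0.91), Eps8, Cst3 and Fgd2 (0.90 each) and Cxcl16 (0.89) among 5213 genes. The sums of 1 class are not independent of each other.

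Macrophages were then split by Fcrls and Ccr2, genes that are no members and that mark the main macrophage subsets of the study. The study took these markers from clusters of these same cells. For its Ccr2 cluster it already reports H2-Aa, H2-Ab1, H2-Eb1, H2-DMb1 and Cd74 as raised. Its flow cytometry also had more MHC class II protein in that subset. The comparison of members below is thus not independent of that clustering and is no new evidence for it. Cells with a Ccr2 UMI and no Fcrls UMI (24, 47 and 84 cells) were compared with cells with Fcrls and no Ccr2 (77, 263 and 323 cells). H2-Aa was at 14835, 18165 and 13477 CPM in the Ccr2-only cells and at 9807, 10833 and 6221 CPM in the Fcrls-only cells. H2-Eb1 was at 9958, 11477 and 9117 against 6376, 6181 and 3944 CPM, and H2-DMb1 at 1222, 1508 and 1155 against 665, 860 and 470 CPM. The lowest Ccr2-only mouse was above the highest Fcrls-only mouse for each of these genes, but the share of all genes without such overlap was not computed. Cells with both genes lay between in H2-Aa, at 12986, 15645 and 9766 CPM.

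In edgeR's test, 7 of the 8 members tested were higher in the Ccr2-only cells, where 9.34% of the 5881 genes tested passed, 5.24% higher and 4.10% lower. The log2 differences were 0.99 ± 0.16 for H2-Eb1 (adjusted p = 5.7e-04), 0.90 ± 0.16 for H2-Ab1 (0.0011), 0.89 ± 0.17 for H2-Aa (0.0023) and 0.81 ± 0.14 for Cd74 (0.0012). Among the DM genes they were 1.06 ± 0.19 for H2-DMb1 (0.0011), 0.71 ± 0.15 for H2-DMa (0.0059) and 0.82 ± 0.25 for H2-DMb2 (0.048), which was higher in 2 of 3 mice. The H2-DMb2 call was lost with DESeq2 (0.080), with looser limits (0.058) and with any 1 mouse left out (0.055 to 0.23). Ciita, at 58.2, 54.3 and 69.9 against 24.8, 52.5 and 23.1 CPM, had a difference of 0.98 ± 0.32 that did not pass (adjusted p = 0.062), and passed with the mouse as a block (0.0059), without a filter (0.0036), with all 6 mice (0.0021) and without mouse 2 (0.0044). H2-Oa and H2-Ob were too low to be tested. The median log2 difference of the members was 0.90, against -0.02 over all genes. Of 14 other pathway genes tested, Ctss was higher (0.69 ± 0.12) and Lgmn (-0.66), Cd86 (-0.55) and Ctsl (-0.49) were lower, and H2-D1 of class I was higher by 0.35 ± 0.11. Depth was similar, with a mean over mice of the median UMIs per cell of 7969 in Ccr2-only and 8599 in Fcrls-only cells. Whether a gene is seen in a cell depends on depth, so these subsets are sorted by detection and each holds cells of the other.

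**Figure D4:**
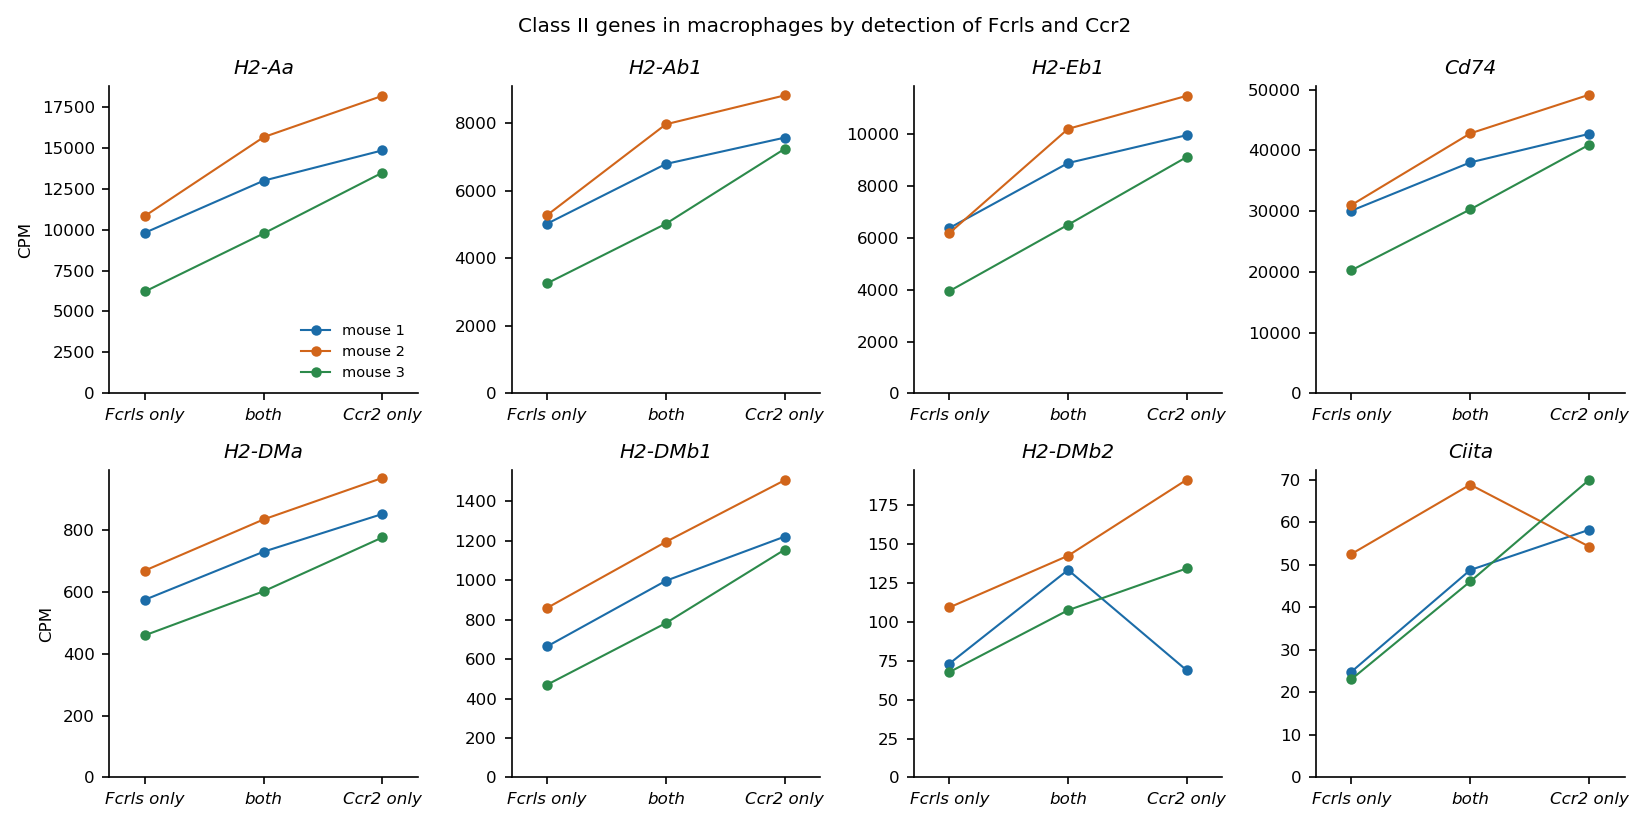
Level (CPM) of H2-Aa, H2-Ab1, H2-Eb1, Cd74, H2-DMa, H2-DMb1, H2-DMb2 and Ciita in macrophages with Fcrls only, both genes, or Ccr2 only, with lines that join the sums of 1 mouse. The Ccr2-only cells are above the Fcrls-only cells in 3 of 3 mice in 7 of the 8 panels, and in 2 of 3 in that of H2-DMb2. How many of all genes are higher in 3 of 3 mice was not computed.

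The subsets overlapped in single cells. The median class II share was 8.43%, 8.90% and 7.71% in Ccr2-only cells and 5.44%, 5.95% and 3.47% in Fcrls-only cells. Fcrls-only cells under a share of 1% made up 12.99%, 6.84% and 25.4%, against 4.17%, 2.13% and 3.57% of Ccr2-only cells.

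Macrophages under a share of 1% (14, 21 and 123 cells) were set beside those over 5% (126, 386 and 409 cells). This division was chosen after the values were seen and rests on 4 of the members, so it is a description with no test. Of the members not used in it, 5 were lower in the low cells in every mouse, with H2-DMb1 at 52.7, 69.7 and 43.7 CPM against 1149, 1261 and 1103 CPM and Ciita at 0, 5.36 and 5.30 CPM against 54.5, 71.8 and 60.9 CPM. H2-DMa was less different, at 237, 418 and 297 against 791, 831 and 738 CPM. The share of all genes that were lower in every mouse was not computed. Most of these members correlate with the 4 that define the division, so their lower levels partly follow from it. H2-Oa, at 6.59, 0 and 1.99 CPM in the low and 0.923, 0.694 and 0.268 CPM in the high cells, was near 0 in both. Both were macrophages by the C1q rule, and the macrophage gene Csf1r, which the rule did not use, was at a mean of 1343 CPM in the low and 999 CPM in the high cells. Their median depth was 9226.5, 8444 and 11295 UMIs, above that of the high cells in each mouse (8846, 7617 and 9110 UMIs). Fcrls-only cells made up 71.4%, 85.7% and 66.7% of them, against 31.7%, 42.0% and 28.6% of the high cells.

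Among all other genes at 50 CPM or more, those most raised in the low cells in each mouse were the iron exporter gene Slc40a1, Hal, Tslp, Fcna, Clec4n, the chemokine gene Ccl8, Ctsd and Folr2. Ccl8 was at 587, 1265 and 939 CPM against 190, 102 and 113 CPM, and Folr2, a folate receptor gene of resident macrophages, at 198, 348 and 329 against 68.3, 58.6 and 81.3 CPM. Those most reduced were Tnip3, Plbd1, Ccr2, Cytip, Bcl2a1a, Id3, Clec4b1 and Cd52, with Tnip3 at 0, 0 and 7.95 against 84.0, 73.5 and 124 CPM. In mouse 3, which had the most low cells, the proliferation gene Top2a was at 179 CPM in the low and 8.85 CPM in the high cells, whereas in mouse 1 and 2 it was at 13.2 and 5.36 against 9.23 and 3.82 CPM. The part of proliferating cells in the low share of mouse 3 was not tested.

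B cells of the DRG were of different stages. Cells with 2 or more UMIs of Ighd, Fcer2a and Cr2 and none of Vpreb1, Igll1, Rag1 or Dntt were taken as mature, and cells with 2 or more UMIs of the latter genes as precursors. Only mouse 1 and 3 had 5 or more cells of each (12 and 10 mature, 9 and 11 precursor cells). The precursors were deeper, with 109534 and 113241 UMIs in all, against 46533 and 36786 in the mature cells. Levels here are shares of UMIs, so a difference in UMIs per cell is smaller than the difference in CPM where mature cells are higher. Cd74 was at 19771 and 18621 CPM in mature cells and at 283 and 327 CPM in precursors, which is below the level in neutrophils of the same mice. H2-Aa was at 5867 and 4920 against 219 and 141 CPM, and H2-DMb2 at 752 and 625 CPM against 0 in both. H2-Oa was found with 10 UMIs in mature cells (129 and 109 CPM) and 0 in precursors. Mature and precursor cells did not overlap in any of these genes, but the share of all genes without overlap was not computed. The mature cells lay below the macrophages of the same mouse for H2-Aa and Cd74.

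In edgeR's test, 6 of 6 members tested were higher in mature cells, where 24.3% of the 1410 genes tested passed, 14.5% higher and 9.79% lower. Both stages came from mouse 1 and 3 alone, and the fit did not pair them. Cd74 differed by 6.21 ± 0.19 on the log2 scale (adjusted p = 1.7e-24), H2-Aa by 5.14 ± 0.24 (6.5e-19), H2-Eb1 by 4.88 ± 0.31 (1.3e-14), H2-DMa by 4.70 ± 0.66 (8.6e-07) and H2-Ab1 by 3.80 ± 0.31 (7.1e-12). H2-DMb2 was at least 51.7-fold and H2-Oa, which was not tested, at least 8.91-fold lower in precursors, at a floor of 3 UMIs over the group. Ctss was higher by 3.46 ± 0.57. With DESeq2, 92 genes passed and 75% of them were higher, against 343 genes and 59.8% with edgeR. With stricter class limits 178 genes passed and 43.8% of them were higher.

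**Figure D5:**
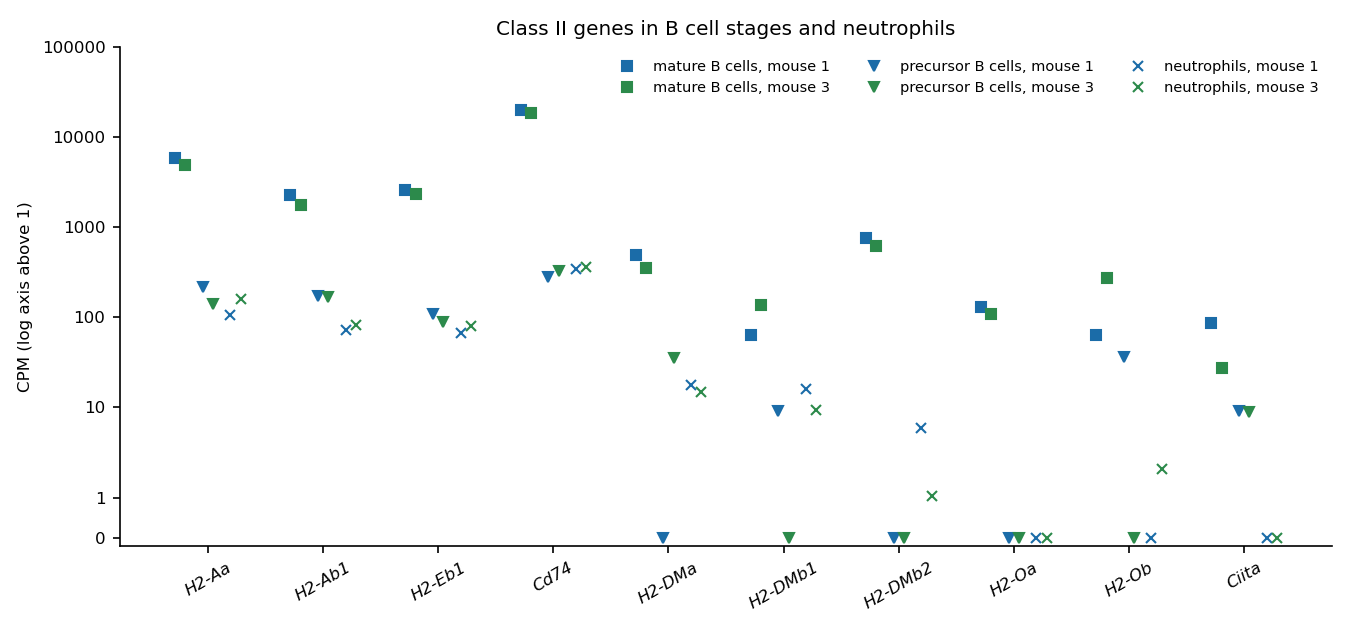
Level of the 10 class II genes (CPM, an axis linear below 1 and logarithmic above) in mature and precursor B cells of mouse 1 and 3 and in neutrophils of the same mice. Mature cells lie above precursors for 6 of 6 members tested, and precursors lie near neutrophils for the classical chains and Cd74.

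Female macrophages did not pass as different in the members. H2-Aa was at 14485, 14543 and 13337 CPM in mouse 4, 5 and 6, against 11659, 13450 and 8720 CPM in the males, and Cd74 at 41240, 39945 and 37435 CPM against 34726, 37464 and 27402 CPM. For both genes the lowest female mouse lay just below the highest male mouse, while H2-Ab1, H2-Eb1, H2-DMa, H2-DMb1 and H2-Ob did not overlap between the sexes. The share of all genes without overlap was not computed, so this list is a description only. In edgeR's test, 0 of 9 members passed (log2 0.19 to 0.49 higher in females, adjusted p = 0.83 to 0.95), while 7 of 9 had an unadjusted p under 0.05. Of all 8089 genes tested 7 passed (0.0865%, with 0.0494% higher and 0.0371% lower in females). How many of all genes had an unadjusted p under 0.05 is not given here for this fit or for DESeq2. Without a filter, 7 of 10 members and 864 of all 15764 genes had an unadjusted p under 0.05 in edgeR's test. DESeq2 passed 0 members, with 7 at an unadjusted p under 0.05. Most members correlate with each other across macrophages, so these counts do not rest on separate observations. They are no result about the members. Without mouse 2, H2-DMb1 passed (0.040), and without a filter H2-Aa (0.049).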

How the data were processed

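CD45+ DRG cells of 3 male and 3 female mice were profiled in 1 10x lane with hashtag antibodies. The authors deposited raw UMI counts per gene and cell, made with Cell Ranger (3.1.0 in the matrix header) on mm10, as a matrix of filtered cells and a larger one of 4395 barcodes that also holds hashtag counts. The larger matrix was demultiplexed with Seurat 5.3.0 (HTODemux, quantile 0.99) and filtered to 200 to 5000 genes and under 5% mitochondrial UMIs. This gave 3741 cells of 6 mice (1073 female), and the male cells were the barcodes of the smaller matrix, with 0 entries that differed. HTODemux left out 269 doublets, and Scrublet marked 47 of the 4111 cells that passed the filters (1.14%). UMIs ranged from 4239463 to 13508078 per male mouse.

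Cells were classed by marker genes in rules on their UMIs, and cells that met more than 1 rule were left out. UMIs were summed per mouse and class where there were 5 or more cells. Sums were tested with edgeR 4.0.16 (TMM, filterByExpr, glmQLFit) over all genes, with Benjamini-Hochberg adjustment and a threshold of 0.05. The 7 classes of the male mice shared a fit, while macrophage subsets, B cell stages and sexes had their own. Ratios were tested with exact permutation tests that did not pair the classes of a mouse (scipy 1.17.1). Replicates are mice, all in 1 lane. The members and lists were chosen with earlier results of these data known. All 10 members are named, and of the other pathway genes up to 6 past the threshold per comparison by size. Rfxap in cDC1, Cd40 and Nfyc in B cells, and the promoter factor genes that were not called were named after their values were seen. Genes of like pattern are from the 6 at each end of the ranking. Some genes of these lists are not reported here. Alternatives were DESeq2 1.42.0, RLE factors, no filter, stricter and looser class limits, no Scrublet doublets, the mouse as a block, all 6 mice and each mouse left out. Sums of the same number come from the same animal, and their deviations from the class means correlated at 0.028, 0.042 and 0.011 in mouse 1, 2 and 3, against -0.012, -0.024 and -0.0038 between mice. The test was checked on simulated counts. Intervals and floors (3 UMIs) cover counting error only.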

Additional observations from a re-analysis of the deposited data

Results flagged for a closer look

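In 9 of 84 sets of 4 to 6 mice, 1 mouse lay far from the others of its class (Dixon's ratio of gap to range), where chance gives about 1 in 20. In cDC2, H2-DMa was at 1390 CPM in mouse 4 (1055 to 1165 CPM in the other mice) and H2-Oa at 134 CPM in mouse 3 (30.2 to 51.5 CPM). The ratio of DM to classical chains in cDC2 was 0.123 in mouse 4, against 0.0722 to 0.0844. In monocytes of mouse 4 this ratio was 1.80, against 0.0984 to 0.667, on 27 UMIs of DM and 15 of the classical chains in 7 cells. In the same 7 cells H2-Eb1 had 1.17 UMIs per H2-Aa UMI, against 0.153 to 0.462 in other mice.

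The ratio of DO to DM in cDC2 was highest in mouse 3, at 0.0508 against 0.0164 to 0.0270, and in cDC1 it was lowest in mouse 1, at 0.0302 against 0.0612 to 0.0726. The ratio of Cd74 to classical chains in cDC2 was lowest in mouse 3, at 1.15 against 1.29 to 1.36. Macrophages with a class II share under 1% made up 16.2% in mouse 3, against 4.05% to 7.65% in the other 5 mice.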

How the results depend on the processing

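The classes of dendritic cells held 5 to 25 cells per mouse, and this small number limits their comparisons. Members past the threshold in cDC2 against macrophages were 2 to 9 with 1 mouse left out (4 with all), and in cDC1 1 to 7. In the same fits 851 to 959 of all genes passed in cDC2 and 1093 to 1631 in cDC1. Of cDC2 against cDC1, 1 member passed with all 6 mice, and of female against male macrophages 1 without a filter and 0 to 1 with 1 mouse left out. With the mouse as a block, members called were 5 in cDC2, 6 in cDC1, 9 in monocytes and 8 in the macrophage subsets, and this block changed no call of a member beyond those given above. The share of all genes called under the block is not given here, so these counts are no result about the members. The largest shifts in genes called overall were 851 without mouse 3 in cDC2 (1278 with all), 1093 in cDC1 (1794), 1328 in monocytes (2178), 5448 without a filter in neutrophils (3544), 281 to 358 in cDC2 against cDC1 (621), 226 to 342 in the macrophage subsets (549), 92 with DESeq2 and 178 with stricter limits in the B cell stages (343), and 96 without a filter and 67 without mouse 2 between the sexes (7). Of the calls between the sexes, 44.4% were higher in females with DESeq2, 18.75% without a filter and 20.9% without mouse 2, against 57.1%. The cause of these shifts was not tested.

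Of single members, 943 of 1024 values under an alternative kept their direction and call, and 28 reversed. All reversals were among differences that did not pass. Cd74 in cDC1 was 0.0085 with stricter limits (-0.22 to 0.15 with 1 mouse left out). H2-DMb2 in B cells was -0.024 with DESeq2, -0.011 with RLE factors, -0.070 without a filter, -0.0031 with stricter and -0.16 with looser limits (-0.49 to 0.38 with 1 mouse left out). Between cDC2 and cDC1, H2-Aa was -0.047 with stricter limits and -0.013 with all 6 mice, while stricter limits brought H2-Ab1 to -0.036 and H2-Eb1 to -0.13. H2-DMb1 there was 0.0091 with DESeq2, 0.0061 without a filter, 0.0084 without Scrublet doublets, 0.0056 with the replicate block, 0.17 with looser limits and 0.0017 with 6 mice (-0.022 to 0.034 with 1 mouse left out). With 1 mouse left out, H2-Ob was -1.32 to 0.51 and Ciita -0.20 to 0.027. H2-Ob in cDC2 against B cells was 0.038 with DESeq2, 0.24 with stricter and 0.083 with looser limits and 0.0079 with the block (-0.46 to 0.22 with 1 mouse left out).

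With all 6 mice, ratios were tested against macrophages with no pairing by mouse. On the log2 scale, DM to classical chains passed in cDC2 (0.31), cDC1 (0.19), B cells (0.79), monocytes (2.28) and neutrophils (0.62). Neutrophils of mouse 4 (0 DM UMIs, a ratio below all macrophages) had no log value and were left out. DO to DM passed in cDC2 (0.0186), cDC1 (0.0516), B cells (0.295) and T and NK cells (0.618). Cd74 to classical chains passed in cDC1 (-0.46), B cells (0.58) and T and NK cells (-0.42). The H2-DMb2 share passed in cDC2 (0.0462), B cells (0.737) and T and NK cells (-0.11). T and NK cells had only 72 UMIs of the DM genes over the 6 mice. In their male cells H2-DMb2 had 0 UMIs, and a H2-DMb1 UMI was found in 7.97% of cells. Their H2-DMb2 share was thus at its floor and is not read as a difference. The other ratios that passed in neutrophils and in T and NK cells are not read as differences either. The classical chains and Cd74 of these classes were not read as expression, and their DM UMIs were few. The ratios that reversed were DO to DM in monocytes with looser limits (-0.00057) and in neutrophils (-0.0059 to 0.0352 with 1 mouse left out), Cd74 to classical chains in monocytes with stricter limits (-0.014, and -0.20 to 0.23), and the H2-DMb2 share in cDC1 with looser limits (0.0354, and -0.0136 to 0.0044), in monocytes with 6 mice (-0.00072, and -0.0134 to 0.0685) and in neutrophils (-0.0642 to 0.0768). With a T and NK rule without Nkg7, chosen after seeing the data, 9 members passed in neutrophils, as before. The coefficient of variation in macrophages stayed within 0.447 to 0.543. In the B cell stages leaving out mouse 1 or 3 was not possible.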
